A study of Mus musculus with 49 samples.

Results

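Mouse embryonic stem cells that had been exposed to fluoxetine for 10 days were compared with unexposed cells on day 13 of neural differentiation, across all genes with enough counts to be tested. The comparison used the 14 libraries named for fluoxetine or control on day 13, 7 of each, out of 49 libraries in the series. The statistical fit also held 7 libraries of day 13 with a second drug, venlafaxine, at 90 µM from day 3 to day 13. Those entered only the count filter, the scaling and the shared estimate of the spread. The cells were ES-D3, an established mouse embryonic stem cell line, in the neural embryonic stem cell test, a culture assay in which cells form embryoid bodies and then differentiate into neural cells. The fluoxetine group received 2 µM of the drug between day 3 and day 13. The control group was of the same line and day and received no drug, and whether it received the solvent of the drug is not given in the labels. The labels give no genetic change or sort for either group, so each library holds the RNA of a whole mixed culture. They mention 8 samples per condition, of which 7 per group were analysed here, and leave unstated if replicates were independent differentiations. The p-values therefore measure the spread between these samples, which may be technical. The polyA RNA had been sequenced as strand-specific libraries, and counts per gene were deposited.

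Fluoxetine is a selective serotonin reuptake inhibitor, a drug that blocks Slc6a4, the transporter that carries released serotonin back into neurons. In the developing neural tube, Sonic hedgehog from the floor plate turns on ventral transcription factors such as Nkx6-1, while signals from the roof plate turn on dorsal factors such as Pax3 and Pax7, and Hox genes mark position along the axis from hindbrain to tail. Notch signals between neighbouring cells hold progenitors back from becoming neurons, and neurons that do form then switch on peptides, ion channels and transmitter receptors.

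Fluoxetine libraries held 15217533 to 27225589 counts and control libraries 14333181 to 29225775, with 1.5% to 1.83% and 1.63% to 1.78% of counts in mitochondrial transcripts. Summed levels of the 25 general neuron genes ran over 9697 to 11897 CPM in fluoxetine libraries and 9623 to 12875 CPM in controls, and those of 15 progenitor and radial glia genes over 3111 to 3509 CPM in fluoxetine libraries and 2508 to 3549 CPM in controls, so the neural label held in both groups. Principal components were computed over the 21 libraries of day 13, which include 7 of venlafaxine. On the second component, which took 13.7% of the variance, fluoxetine replicates 5, 6 and 7 lay at 38.5, 19.1 and 24.2. The other 4 fluoxetine libraries lay between -10.7 and 9.56, and the controls between -18.1 and -3.88. The controls were uneven on the first component (36.9% of the variance), where control replicates 1, 6 and 8 lay at 44.7, 27.9 and 29.9 and the other 4 controls between -24.0 and 7.39. Fluoxetine libraries ran from -9.72 to 37.8 there, with replicate 5 highest. Counts of list members are therefore also given without fluoxetine replicates 5, 6 and 7, and without control replicates 1, 6 and 8, where at least 3 members lay on the side in question. In bulk RNA, fewer cells of a type and less RNA per cell cannot be told apart.

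A small set of genes differed between the groups. Of 16397 genes tested, 10 rose and 9 fell with fluoxetine at an adjusted p under 0.05, which is 0.116% of genes (0.061% higher and 0.0549% lower). Transcription factors of ventral neural tube and motor neurons were among those that rose, and the substance P precursor Tac1 and a potassium channel were among those that fell. Most of the changes were small: 4 of the 19 exceeded 1.5-fold, and the median log2 fold change over all genes was -0.0045. The genes were tested with edgeR's quasi-likelihood test and Benjamini-Hochberg adjustment, and called genes had adjusted p-values of 0.0353 to 0.0491. Below that threshold, 2312 genes (14.1%) had an unadjusted p under 0.05, of which 1235 (7.53%) were higher and 1077 (6.57%) lower. These shares serve below as the background for gene lists.

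**Figure D1:**
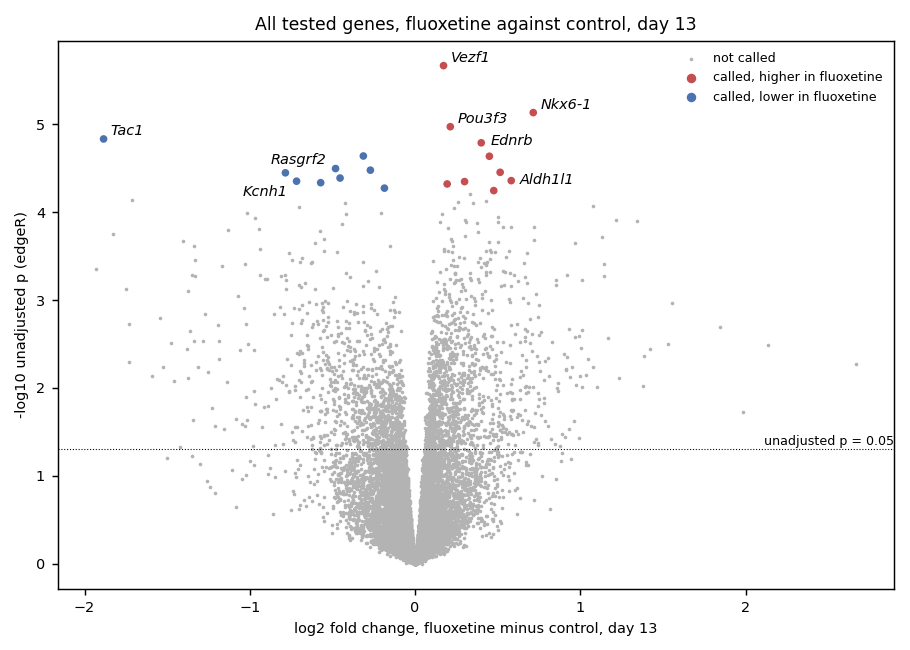
Log2 fold change (fluoxetine minus control, day 13) on the x axis against -log10 of the unadjusted edgeR p on the y axis for the 16397 genes tested, with the 10 called genes that rose in red and the 9 that fell in blue. Tac1 lies farthest to the left at -1.89, and the other 18 called genes lie within 1 unit of 0.

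Among the called genes, 5 that rose encode transcription factors. Values are given as the lowest, median and highest CPM, the counts of a gene scaled to a common library size, coordinates are those of the gene in build GRCm38.p6 as deposited, fold changes are log2 of fluoxetine over control with their standard error, and n is 7 libraries per group. Nkx6-1 (chr5:101658139-101664996), which specifies ventral progenitors and motor neurons, was at 88.8, 112 and 146 CPM in fluoxetine libraries, against 58.5, 70.5 and 85.6 CPM in controls. The groups did not overlap, and the log2 fold change was 0.72 ± 0.122 (95% interval 0.46 to 0.97), with an adjusted p of 0.0461. Lhx4 (chr1:155698031-155751684), a LIM homeobox factor of motor neurons and neighbouring V2 interneurons, was at 91.9, 104 and 133 CPM in fluoxetine libraries, against 73.4, 75.6 and 86.7 CPM in controls. Every fluoxetine library lay above every control, with a log2 fold change of 0.45 ± 0.0836 (95% interval 0.28 to 0.62) and an adjusted p of 0.0461. Mecom (chr3:29951296-30548008), a zinc finger factor best known from blood stem cells, was at 15.1, 18 and 22.3 CPM in fluoxetine libraries, against 12.1, 12.6 and 14.4 CPM in controls. It too separated the groups fully, at 0.51 ± 0.0994 (95% interval 0.31 to 0.72) and an adjusted p of 0.0461.

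The 2 other factors that rose moved by less but with little spread. Pou3f3 (chr1:42695768-42703176), a POU factor of neural progenitors and upper cortical layers, was at 191, 205 and 225 CPM in fluoxetine libraries, against 171, 178 and 185 CPM in controls. The groups stood apart although the log2 fold change was only 0.21 ± 0.0375 (95% interval 0.14 to 0.29, adjusted p 0.0461). Vezf1 (chr11:88068279-88084729), a zinc finger factor described first in blood vessel endothelium, was at 179, 188 and 194 CPM in fluoxetine libraries, against 161, 166 and 174 CPM in controls. It had the smallest p of all genes at a log2 fold change of 0.17 ± 0.027 (95% interval 0.12 to 0.23, adjusted p 0.0353), again without overlap between groups.

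The other 5 genes that rose encode receptors, adhesion molecules and enzymes. Ednrb (chr14:103814625-103844173), the endothelin B receptor of neural crest and glial cells, was at 545, 602 and 681 CPM in fluoxetine libraries, against 414, 476 and 528 CPM in controls. Its groups did not overlap, and it rose by 0.40 ± 0.0727 (95% interval 0.25 to 0.55, adjusted p 0.0461) on the log2 scale. Ephb1 (chr9:101922128-102354693), a receptor for ephrin-B ligands in axon guidance, was at 166, 182 and 190.5 CPM in fluoxetine libraries, against 134, 147 and 165 CPM in controls. The lowest fluoxetine library lay just above the highest control, with a log2 fold change of 0.30 ± 0.0589 (95% interval 0.18 to 0.42) and an adjusted p of 0.0461. Ntng2 (chr2:29194541-29253005), the membrane-anchored netrin-G2 of axons, was at 20.3, 22.3 and 26.3 CPM in fluoxetine libraries, against 14.7, 16.2 and 18.4 CPM in controls. It stood clear of the controls at 0.48 ± 0.0956 (95% interval 0.28 to 0.67, adjusted p 0.0491).

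Both enzymes are of metabolism. Aldh1l1 (chr6:90486427-90600203), a folate enzyme much used as an astrocyte marker, was at 70.2, 85.3 and 111 CPM in fluoxetine libraries, against 48.1, 56.5 and 75.2 CPM in controls. The groups overlapped, since 1 control reached into the fluoxetine range, and the log2 fold change was 0.58 ± 0.114 (95% interval 0.35 to 0.82, adjusted p 0.0461). Abhd4 (chr14:54254188-54270637), a lipase of N-acyl phospholipids, was at 153, 157 and 171 CPM in fluoxetine libraries, against 128, 141 and 149 CPM in controls. Here the groups were separate, at a log2 fold change of 0.19 ± 0.0384 (95% interval 0.11 to 0.27) and an adjusted p of 0.0461.

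The 9 genes that fell were led by genes of neuronal signalling. Tac1 (chr6:7554879-7565834), the precursor of the neuropeptide substance P, was at 0.411, 1.03 and 1.37 CPM in fluoxetine libraries, against 2.05, 3.11 and 3.99 CPM in controls. No fluoxetine library reached the lowest control, and the log2 fold change of -1.89 ± 0.338 (95% interval -2.59 to -1.18) was the largest of all called genes, with an adjusted p of 0.0461. Rasgrf2 (chr13:91880400-92131656), a calcium-activated exchange factor for Ras and Rac, was at 1.91, 2.46 and 3.46 CPM in fluoxetine libraries, against 3.6, 4.41 and 5.59 CPM in controls. Its groups did not overlap, at a log2 fold change of -0.78 ± 0.152 (95% interval -1.10 to -0.47) and an adjusted p of 0.0461. Kcnh1 (chr1:192190774-192510159), a voltage-gated potassium channel of the EAG family, was at 3.17, 4.38 and 5.99 CPM in fluoxetine libraries, against 6.26, 7.57 and 8.81 CPM in controls. It was separate as well, at -0.72 ± 0.141 (95% interval -1.01 to -0.42, adjusted p 0.0461).

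A further 4 genes that fell were expressed at low to moderate CPM. Sphkap (chr1:83254139-83408200), an anchoring protein for protein kinase A, was at 7.93, 9.13 and 10.1 CPM in fluoxetine libraries, against 10.04, 12.5 and 14.5 CPM in controls. The ranges touched at their edges, and the log2 fold change was -0.45 ± 0.0888 (95% interval -0.64 to -0.27, adjusted p 0.0461). Plekhd1 (chr12:80692591-80724214), named for its pleckstrin homology domain, was at 2.09, 2.82 and 3.01 CPM in fluoxetine libraries, against 3.57, 3.9 and 4.81 CPM in controls, and Zmat4 (chr8:23636019-24156585), named for its matrin-type zinc fingers, was at 8.05, 9.67 and 10.9 CPM in fluoxetine libraries, against 11.1, 13.5 and 15.5 CPM in controls. For both, every fluoxetine library lay below every control. The log2 fold change of Plekhd1 was -0.57 ± 0.113 (95% interval -0.81 to -0.34) with an adjusted p of 0.0461, and that of Zmat4 was -0.48 ± 0.0922 (95% interval -0.67 to -0.29) with an adjusted p of 0.0461. Fam49a (chr12:12262139-12380965) was at 34.9, 38.7 and 45.2 CPM in fluoxetine libraries, against 44.8, 49.7 and 52.8 CPM in controls. The ranges met at their edges, and its log2 fold change was -0.31 ± 0.0584 (95% interval -0.43 to -0.19, adjusted p 0.0461).

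The last 2 genes that fell moved least. Magi3 (chr3:104013259-104220374), a scaffold protein of cell junctions, was at 45.4, 52.5 and 54.6 CPM in fluoxetine libraries, against 53.7, 60.1 and 67.7 CPM in controls. Cdc7 (chr5:106964322-106984432), the kinase that fires DNA replication origins, was at 57.1, 58 and 62.8 CPM in fluoxetine libraries, against 60.5, 68 and 71.1 CPM in controls. Groups overlapped slightly for both. Magi3 had a log2 fold change of -0.27 ± 0.052 (95% interval -0.38 to -0.16) and an adjusted p of 0.0461, and Cdc7 had -0.19 ± 0.0371 (95% interval -0.26 to -0.11) and 0.0485. None of the 28 cell cycle genes on the list used, which did not hold Cdc7, had an unadjusted p under 0.05.

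**Figure D2:**
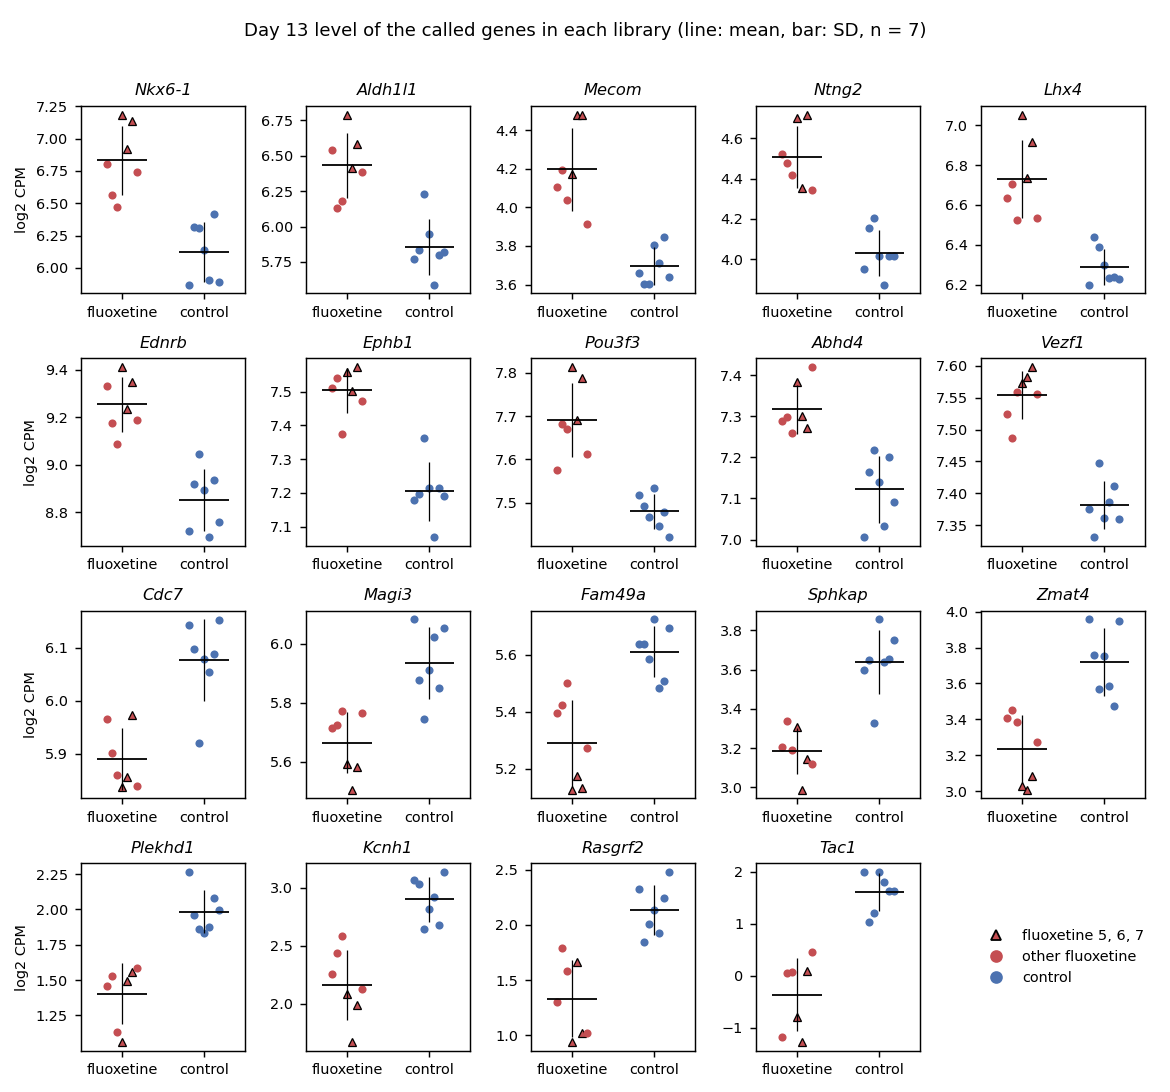
Level of each of the 19 called genes in each library on day 13, as log2 CPM on the y axis, with fluoxetine on the left and control on the right of each panel (line, mean; bar, SD; n = 7). Triangles mark fluoxetine replicates 5, 6 and 7; for 14 of the 19 genes the groups do not overlap, and for Nkx6-1 and Lhx4 the triangles include the highest values.

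Complete separation of the groups was rare over the genome. It held for 57 of the 16397 genes (0.348%), of which 39 (0.238%) were higher and 18 (0.11%) lower. Of the 19 called genes it held for 9 that rose and 5 that fell. In all 19, every fluoxetine library lay on the called side of the control median. All fluoxetine libraries also lay on one side of that median for uncalled genes such as Nes (edgeR adjusted p 0.542). The share of all genes with this pattern is not given here. Called genes were all protein coding. Just outside the threshold stood 6 genes with adjusted p-values from 0.0506 to 0.0521. They were Acss1, a mitochondrial acetyl-CoA synthetase, at a log2 fold change of 0.33 ± 0.0675; Egr2, a hindbrain segment and Schwann cell factor, at -1.71 ± 0.351; and Insm1, a factor of newly born neurons, at 0.43 ± 0.0876. The guidance molecule Sema6a was at 0.26 ± 0.0533, the antisense RNA Hoxb3os at 0.35 ± 0.0721 and the synapse organizer Cbln2 at -0.43 ± 0.0879. Egr2 did not exceed 1.41 CPM in any of the 14 libraries, and reads of Hoxb3os and of the Hox genes on the other strand are kept apart only if the counting used strand, a setting not named in the labels.

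The count of called genes depended on the libraries and on the test. The fits below reuse libraries in which the 19 genes were picked, so kept signs and small p-values there are no independent support. Without fluoxetine replicates 5, 6 and 7, with 4 against 7 libraries, no gene was called by edgeR, the lowest adjusted p was 0.734, and 833 genes (4.98%) had an unadjusted p under 0.05. All 19 genes kept their sign there, with unadjusted p-values of 0.000213 to 0.00234. Their log2 fold changes were 0.665 to 0.999 times those with all libraries, and Nkx6-1 then had 0.51 ± 0.124, Lhx4 0.31 ± 0.0801 and Tac1 -1.74 ± 0.416. Without control replicates 1, 6 and 8, with 7 against 4 libraries, no gene was called either, the lowest adjusted p was 0.0811, and 1839 genes (11.1%) had an unadjusted p under 0.05. The 19 genes again kept their sign, at 0.647 to 1.00 times the log2 fold change and with unadjusted p-values of 7.61e-05 to 0.00307, and Nkx6-1 had 0.55 ± 0.134, Lhx4 0.40 ± 0.103 and Tac1 -1.74 ± 0.405. DESeq2, run on the same counts as an alternative, called 423 of 15443 genes (2.74%), 268 higher (1.74%) and 155 lower (1%), and these included all 19. Limma voom called 1 gene (0.0061%), Vezf1.

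The 50 gene lists examined are described by how many of their tested members had an unadjusted p under 0.05, beside 7.53% higher and 6.57% lower over all genes. Such members are not called genes, and the members of a list share their libraries. Lists on the higher side included those of Notch signalling, serotonergic neurons, drug targets, radial glia, oligodendrocytes, Sonic hedgehog, lysosome and fatty acid synthesis. Transmitter receptors, glutamatergic and GABAergic neurons, dorsal progenitor factors and Hox clusters B and C were among those on the lower side. Over all genes the background was 2.79% higher and 2.19% lower without the 3 fluoxetine libraries, and 6.67% higher and 4.39% lower without the 3 controls. Without those controls no oligodendrocyte gene was higher at that level and no GABAergic or glycinergic gene lower, and 2 radial glia genes were higher.

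**Figure D3:**
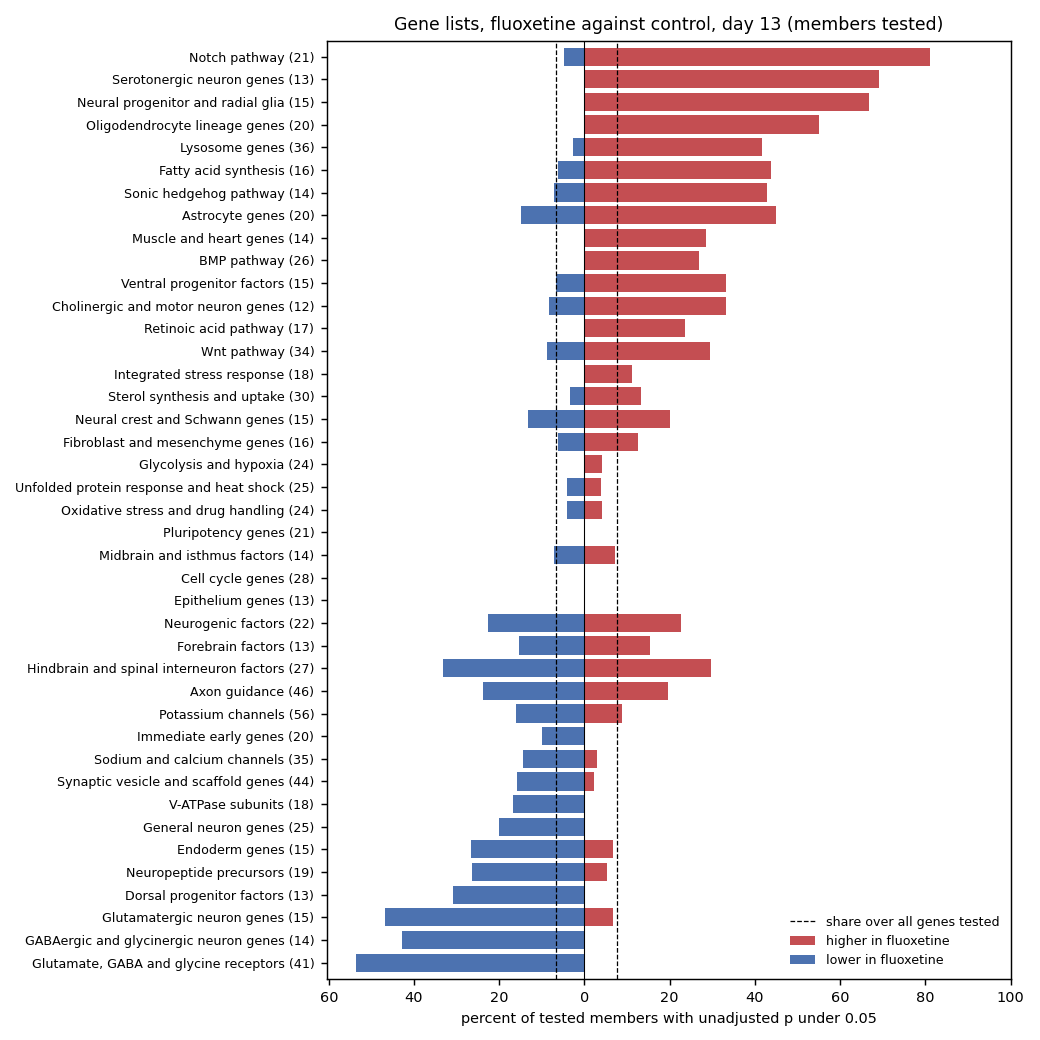
Percent of tested members (x axis) of each gene list with at least 10 tested members with an unadjusted p under 0.05 that were higher (red, right) or lower (blue, left) in fluoxetine than in control, with the number tested in brackets. Dashed lines give the shares over all 16397 genes, 7.53% higher and 6.57% lower; the Notch list reaches 81% on the higher side and the receptor list 53.7% on the lower side.

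Along the dorsal to ventral axis, ventral factors lay higher and dorsal factors lower, and control replicates 1, 6 and 8 stood apart from the other controls in both sums. Ventral factors summed to 627 to 741 CPM in fluoxetine libraries, against 417, 392 and 408 CPM in those 3 controls and 582 to 686 CPM in the other 4. Dorsal factors summed to 51.9 to 127 CPM in fluoxetine libraries, against 131, 172 and 129.6 CPM in those 3 controls and 53.2 to 95.7 CPM in the other 4. Of 15 ventral progenitor factors, 5 were higher and 1 lower at unadjusted p under 0.05, with Nkx6-1 called and a median log2 fold change of 0.29. Nkx6-2, the relative of Nkx6-1 in the same progenitors, was at 20.7, 28.6 and 39.98 CPM in fluoxetine libraries, against 18.2, 20.1 and 27.5 CPM in controls. The groups overlapped, with 2 controls above the lowest fluoxetine library, at a log2 fold change of 0.53 ± 0.129 (adjusted p 0.068). Dbx2, a factor of the intermediate domain, had -0.54 ± 0.169 (adjusted p 0.132).

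Of 14 Sonic hedgehog pathway genes, 6 were higher and 1 lower at that level, and none was called. The receptor and target gene Ptch1 was at 336, 408 and 443 CPM in fluoxetine libraries, against 230.5, 309 and 375 CPM in controls, overlapping at the top of the control range (log2 fold change 0.38 ± 0.095, adjusted p 0.0682). Hhip, an inhibitor that binds the ligand and is itself a target, had 0.40 ± 0.132, and the signal transducer Smo 0.22 ± 0.0746. Gli3, which mostly acts as the repressor of the pathway, had -0.48 ± 0.166 (adjusted p 0.166). Control replicates 1, 6 and 8 were at 40.9, 50 and 38.9 CPM of Gli3, and without them it had -0.19 ± 0.169. In that fit Ptch1 had 0.24 ± 0.0915, Smo 0.11 ± 0.0742 and Hhip 0.45 ± 0.161.

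Of 13 dorsal progenitor factors none was higher and 4 were lower at unadjusted p under 0.05, and none was called. Pax7 was at 0.294, 0.637 and 1.24 CPM in fluoxetine libraries, against 1.17, 1.89 and 2.68 CPM in controls. Only the highest fluoxetine library reached into the control range, at a log2 fold change of -1.35 ± 0.331 (adjusted p 0.068). Pax3 had -0.97 ± 0.35, with wide overlap between groups. Gsx1, a factor of dorsal interneuron progenitors, had -0.80 ± 0.278. It was at 0.29 to 1.52 CPM in fluoxetine libraries, against 1.05 to 2.07 CPM in controls, with partial overlap. Without fluoxetine replicates 5, 6 and 7 the numbers at that level were 2 of 15 ventral and 2 of 14 hedgehog genes higher and 1 dorsal factor lower. Without control replicates 1, 6 and 8 they were 4 ventral and 4 hedgehog genes higher and 2 dorsal factors lower.

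Factors of neuron classes born along this axis lay on both sides. Of 27 hindbrain and spinal interneuron factors, 8 were higher and 9 lower at unadjusted p under 0.05, with Lhx4 called. Gata2 and Gata3, factors of V2b interneurons and of serotonergic precursors, had 0.54 ± 0.135 and 0.62 ± 0.155, with adjusted p-values of 0.0712 and 0.069. Gata3 was at 86.6, 121 and 169 CPM in fluoxetine libraries, against 71, 80.7 and 83.2 CPM in controls, without overlap. On the lower side, Pou4f1, a factor of sensory and dorsal interneurons, was at 6.14, 12.9 and 33.1 CPM in fluoxetine libraries, against 19.9, 41.1 and 50.4 CPM in controls. A single fluoxetine library of 33.1 CPM lay well inside the control range, and the log2 fold change was -1.33 ± 0.326 (adjusted p 0.0682). Of 12 cholinergic and motor neuron genes, 4 were higher and 1 lower, with Nkx6-1 and Lhx4 called. Leaving the 3 fluoxetine libraries out left 3 interneuron factors higher and 4 lower, and 2 motor neuron genes higher. Leaving the 3 controls out left 8 interneuron factors higher and 1 lower, and 5 motor neuron genes higher.

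Serotonergic genes, which include the drug's target, lay higher without passing the test. Of 13 tested, 9 were higher and none lower at unadjusted p under 0.05, with a median log2 fold change of 0.62. Slc6a4, the transporter that fluoxetine blocks, was at 13.1, 23.9 and 43.8 CPM in fluoxetine libraries, against 5.16, 10.8 and 21.2 CPM in controls. The groups overlapped widely, with a log2 fold change of 0.95 ± 0.309 (95% interval 0.31 to 1.59) and an adjusted p of 0.146. Ddc, which makes serotonin and dopamine from their precursors, was at 3.42, 6.58 and 7.66 CPM in fluoxetine libraries, against 2.09, 2.66 and 5.21 CPM in controls, at 0.83 ± 0.248 (adjusted p 0.119). Slc18a2, the vesicle loader for monoamines, had 0.81 ± 0.255, the low-affinity transporter Slc22a3 1.01 ± 0.308 and the degrading enzyme Maoa 0.29 ± 0.0963, with adjusted p-values from 0.125 to 0.158. Slc6a2, the noradrenaline transporter, was at -0.38 ± 0.373 (adjusted p 0.724).

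Fewer serotonergic genes stood out in the 4 remaining fluoxetine libraries. Without fluoxetine replicates 5, 6 and 7, 2 of the 13 genes had an unadjusted p under 0.05, and Slc6a4 had a log2 fold change of 0.50 ± 0.332 (unadjusted p 0.147). With control replicates 1, 6 and 8 left out instead, 3 of the 13 were higher at that level and Slc6a4 had 0.59 ± 0.331. A list of 8 drug targets and monoamine transporters, which shares genes with these, had 4 higher and none lower with all libraries, none higher without the 3 fluoxetine libraries and 1 without the 3 controls. Of 8 serotonin receptors, 1 was higher at that level with all 7 libraries. It was Htr1a, the receptor with which serotonergic neurons sense their own output, at 3.76, 4.7 and 6.73 CPM in fluoxetine libraries, against 2.33, 3.64 and 4.45 CPM in controls, overlapping between groups (log2 fold change 0.53 ± 0.159, adjusted p 0.119).

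Hox genes lay lower, above all in clusters B and C. Of 9 tested members of cluster B, 6 were lower and none higher at unadjusted p under 0.05, with a median log2 fold change of -1.06, and of cluster C all 3 tested members were lower. Cluster A had 2 of 6 and cluster D 1 of 5, and no Hox gene was called. Hoxb5 was at 3.23, 5.37 and 10.8 CPM in fluoxetine libraries, against 11.6, 13.7 and 17.4 CPM in controls. It was the 1 Hox gene named here without overlap, at -1.34 ± 0.304 (95% interval -1.97 to -0.71) and an adjusted p of 0.0604. Hoxb8 was at 5.56, 12.1 and 29.3 CPM in fluoxetine libraries, against 21.4, 29.4 and 39.8 CPM in controls. Hoxb6 was at 3.01, 6.45 and 21.5 CPM in fluoxetine libraries, against 12.2, 19.4 and 28.3 CPM in controls. In both, 1 fluoxetine library, replicate 4, lay inside the control range. Their log2 fold changes were -1.20 ± 0.338 and -1.34 ± 0.398, with adjusted p-values of 0.104 and 0.119.

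The other named Hox genes overlapped between the groups. Hoxb7 had a log2 fold change of -1.06 ± 0.325, Hoxa5 -0.69 ± 0.195, Hoxa7 -0.83 ± 0.283 and Hoxd8 -0.70 ± 0.22. In cluster C, Hoxc5 was at 0.353 to 1.38 CPM in fluoxetine libraries, against 0.773 to 2.5 CPM in controls (log2 fold change -1.17 ± 0.28), Hoxc6 at 0.207 to 1.28 CPM in fluoxetine libraries, against 0.155 to 2.82 CPM in controls (-1.73 ± 0.553) and Hoxc4 at 6.11 to 12.6 CPM in fluoxetine libraries, against 9.66 to 20.2 CPM in controls (-0.65 ± 0.197). The gene models of Hoxc5 and Hoxc6 overlap on the same strand, so their counts are uncertain. Adjusted p-values of these 7 genes ran from 0.0645 to 0.165. With fluoxetine replicates 5, 6 and 7 left out, 3 genes of cluster B and 2 of cluster C still had an unadjusted p under 0.05, and Hoxb5 had a log2 fold change of -0.99 ± 0.341 (unadjusted p 0.00938). With control replicates 1, 6 and 8 left out, 5 genes of cluster B and 2 of cluster C were lower at that level, and Hoxb5 had -1.34 ± 0.369.

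**Figure D4:**
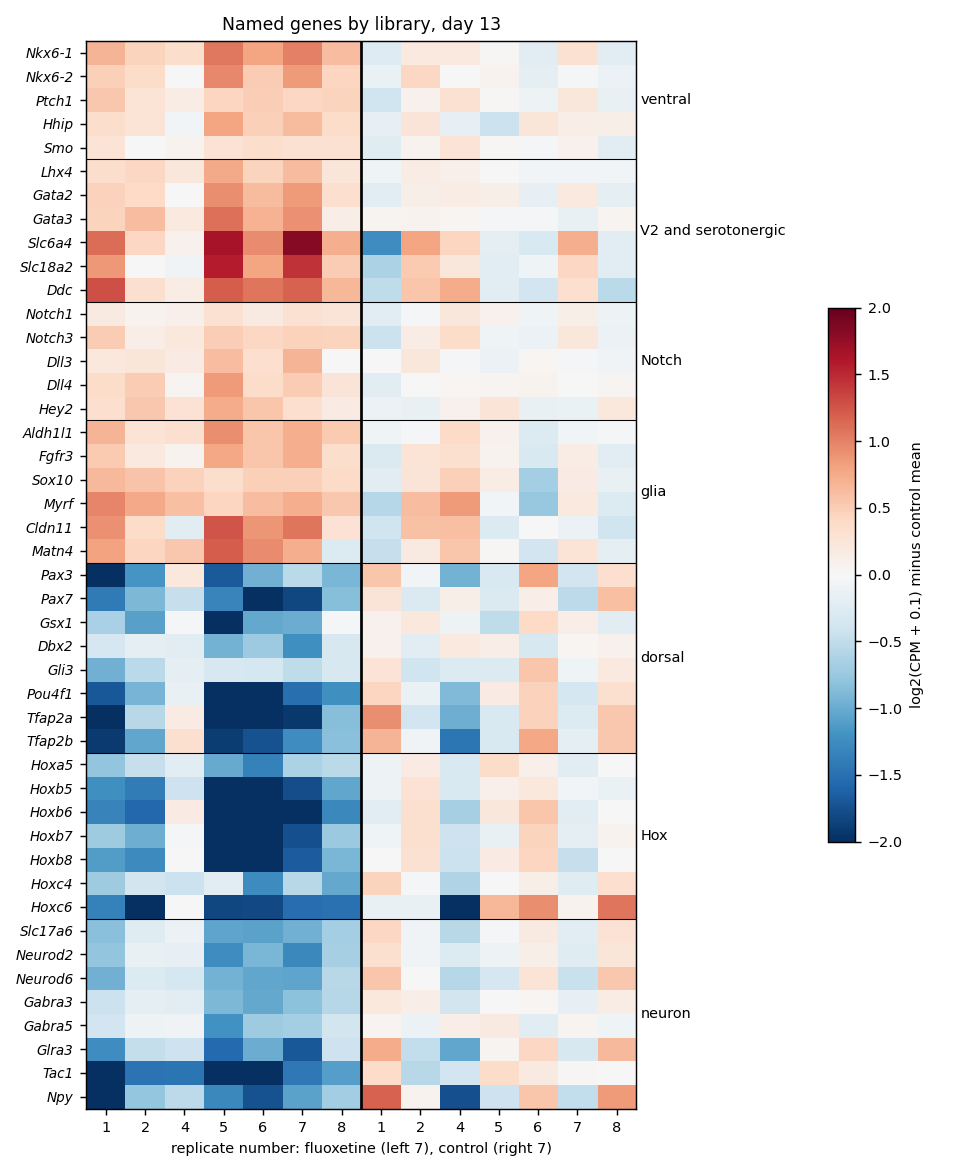
Level of named genes in each day 13 library, fluoxetine replicates left of the line and control replicates right of it, as log2(CPM + 0.1) minus the control mean of the gene, with colours capped at 2 units either way. Fluoxetine replicates 5, 6 and 7 hold the 3 lowest values of Hoxb5, Hoxb6, Hoxb7 and Hoxb8, and replicates 5 and 7 the 2 highest of Slc6a4 and Slc18a2, while replicate 4 is the fluoxetine library with the highest value of those 4 Hox genes.

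Notch pathway genes lay higher as a broad, shallow shift. Of 21 tested, 17 (81%) were higher and 1 lower at unadjusted p under 0.05, with a median log2 fold change of 0.26, and none was called. The receptors Notch3 and Notch1 had 0.36 ± 0.096 and 0.20 ± 0.0571, with adjusted p-values of 0.0867 and 0.108. The ligand Dll4 was at 6.33, 7.92 and 11.1 CPM in fluoxetine libraries, against 5.21, 6.26 and 6.4 CPM in controls, with a slight overlap (log2 fold change 0.44 ± 0.104, adjusted p 0.0637), and the related inhibitory ligand Dll3 had 0.34 ± 0.0841. Hey2, a repressor that Notch switches on, was at 10.4, 11.7 and 15.5 CPM in fluoxetine libraries, against 8.33, 8.48 and 11 CPM in controls, also with a slight overlap (log2 fold change 0.43 ± 0.0997, adjusted p 0.0604). Without fluoxetine replicates 5, 6 and 7, 7 of the 21 genes were still higher at that level, and without control replicates 1, 6 and 8, 10 were. DESeq2 called 9 of the 21 higher.

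Progenitor genes, which share Notch1 and other members with that list, lay higher too. Of 15 progenitor and radial glia genes, 10 were higher and none lower at unadjusted p under 0.05. Sox2, which maintains neural progenitors, was at 162, 176 and 198 CPM in fluoxetine libraries, against 123, 155 and 189 CPM in controls, and the RNA-binding protein Msi1 at 137, 152 and 171 CPM in fluoxetine libraries, against 125, 137 and 144 CPM in controls. The groups overlapped for both, at 0.25 ± 0.0859 and 0.14 ± 0.0416 and adjusted p-values of 0.174 and 0.121. The intermediate filament gene Nes was at 0.21 ± 0.14 and the progenitor factor Pax6 at -0.10 ± 0.0785, with adjusted p-values of 0.542 and 0.643. Leaving out either the 3 fluoxetine libraries or the 3 controls left 2 of the 15 genes higher at that level. Nes and Pax6 changed sign without those controls, to -0.06 ± 0.099 and 0.02 ± 0.0852.

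Genes of differentiated neurons lay slightly lower. Of 25 general neuron genes, 23 had a log2 fold change below 0, 5 were lower at unadjusted p under 0.05 and none was called, with a median of -0.12. Over all genes tested, 48.2% had a log2 fold change above 0. The neurofilament gene Nefl was at 149, 156 and 194 CPM in fluoxetine libraries, against 169, 201 and 239.9 CPM in controls, with overlap (log2 fold change -0.30 ± 0.0873, adjusted p 0.109), and the growth cone gene Gap43 had -0.16 ± 0.0611. The cytoskeletal genes Tubb3 and Map2 had -0.02 ± 0.074 and -0.12 ± 0.0699, with adjusted p-values of 0.932 and 0.486. At that level 1 of the 25 was lower without fluoxetine replicates 5, 6 and 7 and none without control replicates 1, 6 and 8, where Tubb3 changed sign to 0.07 ± 0.0836.

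Genes of both main transmitter classes lay lower. Of 15 glutamatergic neuron genes, 7 were lower and 1 higher at unadjusted p under 0.05, and of 14 GABAergic and glycinergic genes 6 were lower and none higher. Slc17a6, the vesicular glutamate transporter of most subcortical neurons, was at 35.4, 41.3 and 68.1 CPM in fluoxetine libraries, against 50.1, 72.8 and 98.2 CPM in controls. The upper fluoxetine libraries overlapped the lower controls, at a log2 fold change of -0.69 ± 0.175 (adjusted p 0.0724). The cortical projection neuron factors Neurod6 and Neurod2 had -0.78 ± 0.198 and -0.70 ± 0.19, and Ebf3, a factor of migrating neurons, -0.73 ± 0.197, with adjusted p-values of 0.0741, 0.0928 and 0.0914. Without the 3 fluoxetine libraries, 3 glutamatergic and 2 GABAergic or glycinergic genes were lower at that level, and without the 3 controls 3 and none.

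Receptors for glutamate, GABA and glycine lay lower as well. Of 41 tested, 22 (53.7%) were lower and none higher at unadjusted p under 0.05, with a median log2 fold change of -0.24, and none was called. The GABA-A receptor subunit Gabra3 was at 22.7, 30.8 and 40.1 CPM in fluoxetine libraries, against 35.8, 47.3 and 53.3 CPM in controls. The upper fluoxetine libraries lay inside the control range, at -0.57 ± 0.126 (95% interval -0.83 to -0.31) and an adjusted p of 0.055. The subunit Gabra5 had -0.46 ± 0.133, and the glycine receptor subunits Glrb and Glra3 had -0.22 ± 0.0558 and -1.07 ± 0.279, with adjusted p-values of 0.107, 0.0724 and 0.082. DESeq2 called 7 of the 41 lower, and at an unadjusted p under 0.05 there were 4 lower without fluoxetine replicates 5, 6 and 7 and 8 without control replicates 1, 6 and 8.

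Peptides, channels and synaptic genes were mixed. Of 19 neuropeptide precursors, 5 were lower and 1 higher at unadjusted p under 0.05, with Tac1 called. Npy, the neuropeptide Y precursor, was at 1.76, 3.78 and 5.61 CPM in fluoxetine libraries, against 2.32, 8.5 and 18.3 CPM in controls, with a wide spread among controls (log2 fold change -1.36 ± 0.393, adjusted p 0.109). Control replicates 1, 6 and 8 were highest for Npy, at 18.3, 12 and 14.7 CPM. Without them its log2 fold change was -0.57 ± 0.4 (edgeR unadjusted p 0.17). Sst, the somatostatin precursor, had -0.49 ± 0.184, while Chgb, a protein of secretory granules, had 0.29 ± 0.102. Of 56 potassium channels, 5 were higher and 9 lower, with Kcnh1 called, and the calcium-activated channel Kcnn3 was at 51.4, 62 and 68.4 CPM in fluoxetine libraries, against 40.5, 47.6 and 56.7 CPM in controls, at 0.32 ± 0.0935 (adjusted p 0.114). Of 35 sodium and calcium channels, 1 was higher and 5 lower, among them Cacng3, an auxiliary subunit of AMPA receptors, at -0.78 ± 0.194. Leaving the 3 fluoxetine libraries out gave, at that level, 4 peptides lower, 2 potassium channels higher and 1 lower, and 1 sodium or calcium channel lower. Leaving the 3 controls out gave 2 peptides lower, 2 potassium channels higher and 4 lower, and 1 sodium or calcium channel lower.

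Of 44 synaptic vesicle and scaffold genes, 1 was higher and 7 lower at unadjusted p under 0.05. The 1 higher gene was Cplx2, a complexin that clamps vesicle fusion, at 134, 140.3 and 157 CPM in fluoxetine libraries, against 109.8, 124 and 135 CPM in controls, with 1 control just above the lowest fluoxetine library (log2 fold change 0.22 ± 0.0502, adjusted p 0.06). Dlg2, a postsynaptic scaffold, had -0.37 ± 0.114. At that level no synaptic gene was lower without the 3 fluoxetine libraries, and 1 was without the 3 controls. Of 46 axon guidance genes, 9 were higher and 11 lower, with Ephb1 and Ntng2 called, and the repulsive guidance molecule Rgma had 0.30 ± 0.0766 (adjusted p 0.0751). In the axon guidance list, 4 genes were higher and 3 lower without the 3 fluoxetine libraries, and 9 higher and 1 lower without the 3 controls.

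With all libraries, more glial genes lay higher than lower, and Gfap was among those that lay lower. Of 20 astrocyte genes, 9 were higher and 3 lower at unadjusted p under 0.05, with Aldh1l1 called. Fgfr3, a receptor of glial progenitors, was at 129, 175 and 209.8 CPM in fluoxetine libraries, against 98.4, 129 and 152 CPM in controls (0.46 ± 0.134, adjusted p 0.115), and S100b, a calcium-binding protein of astrocytes, had 0.75 ± 0.24 (adjusted p 0.142). Gfap, the intermediate filament gene of mature astrocytes, was on the other side, at 6.57, 8.99 and 15.5 CPM in fluoxetine libraries, against 11.6, 17.8 and 26.6 CPM in controls. Fluoxetine values lay mostly below the controls, with a log2 fold change of -0.90 ± 0.222 (95% interval -1.36 to -0.44) and an adjusted p of 0.0682. With fluoxetine replicates 5, 6 and 7 left out, 4 of the 20 were higher and 1 lower at that level, and with control replicates 1, 6 and 8 left out 3 were higher and 2 lower.

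Of 20 oligodendrocyte lineage genes, 11 were higher and none lower at unadjusted p under 0.05, with a median log2 fold change of 0.43, and none was called. Sox10, which sets the lineage, was at 68.2, 74.7 and 84.1 CPM in fluoxetine libraries, against 33.6, 59.8 and 74.5 CPM in controls. The fluoxetine libraries lay close together while the controls were spread widely, with replicates 1, 6 and 8 lowest, at 0.45 ± 0.141 (adjusted p 0.135). Myrf, the regulator of myelin genes, had 0.57 ± 0.207 and Mbp, myelin basic protein, 0.53 ± 0.21, with adjusted p-values of 0.184 and 0.233. Matn4 and Cldn11, a matrix gene of precursors and a myelin junction gene, had 0.66 ± 0.235 and 0.69 ± 0.247, and the lineage factor Olig2 had 0.31 ± 0.19 (adjusted p 0.503). The list summed to 1015 to 1504 CPM in fluoxetine libraries, against 751, 609.9 and 771 CPM in control replicates 1, 6 and 8 and 1112 to 1379 CPM in the other 4 controls, which lay inside the fluoxetine range. With those 3 controls left out, none of the 20 was higher at that level, Sox10 had 0.22 ± 0.124 and Olig2 changed sign to -0.05 ± 0.125. With fluoxetine replicates 5, 6 and 7 left out, 8 of the 20 were higher and Sox10 had 0.48 ± 0.174.

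Lysosome and lipid genes differed by small amounts with little spread. Fluoxetine is a cationic amphiphilic drug, a kind of compound known to collect in lysosomes. Of 36 lysosome genes, 15 were higher and 1 lower at unadjusted p under 0.05, and none was called. A log2 fold change above 0 was found for 33 of them, and for 48.2% of all genes tested. Npc1, which exports cholesterol from lysosomes, was at 121, 126 and 133 CPM in fluoxetine libraries, against 107, 114 and 121 CPM in controls. The groups met without overlapping, at 0.15 ± 0.033 (95% interval 0.08 to 0.22) and an adjusted p of 0.0526. The lysosomal enzymes Hexa and Gaa, which break down gangliosides and glycogen, had 0.27 ± 0.0621 and 0.15 ± 0.0436, with adjusted p-values of 0.0637 and 0.117. Of the 36, 6 were higher at that level without the 3 fluoxetine libraries and 9 without the 3 controls. The 18 subunits of the lysosomal proton pump had none higher and 3 lower, and none lower when either set of 3 was left out.

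Of 16 fatty acid synthesis genes, 7 were higher and 1 lower. Fads1, a desaturase that makes polyunsaturated fatty acids, was at 276, 302 and 334 CPM in fluoxetine libraries, against 259, 268 and 276 CPM in controls, without overlap (0.18 ± 0.0405, adjusted p 0.0604). Srebf1, which controls the pathway, was at 167, 179 and 189 CPM in fluoxetine libraries, against 134, 154 and 172 CPM in controls, and the stearoyl-CoA desaturases Scd1 and Scd2 had 0.40 ± 0.0954 and 0.24 ± 0.0602. Srebf1 overlapped slightly between groups, at 0.22 ± 0.0513 (adjusted p 0.0604), and 5 of the 16 genes were higher when either set of 3 libraries was left out. Of 30 sterol synthesis and uptake genes, 4 were higher and 1 lower, among them the last enzyme of cholesterol synthesis, Dhcr7, at 0.11 ± 0.0348 (adjusted p 0.145). The 4 sterol genes became 1 without the 3 fluoxetine libraries and 2 without the 3 controls.

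Stress and metabolic lists lay near the background. Of 18 integrated stress response genes, 2 were higher at unadjusted p under 0.05, one being the amino acid transporter Slc7a5 at 0.23 ± 0.0521 (adjusted p 0.0604). Of 25 unfolded protein and heat shock genes, 1 was higher and 1 lower, and the same counts held for 24 genes of oxidative stress and drug handling. Of 24 glycolysis and hypoxia genes 1 was higher, and of 20 immediate early genes 2 were lower. Regional and neurogenic lists held genes on both sides, with 2 of 13 forebrain factors higher and 2 lower, 1 of 14 midbrain factors each way, 3 of 9 catecholamine genes higher and 2 lower, and 5 of 22 neurogenic factors each way. The fit without the 3 fluoxetine libraries had no catecholamine gene higher and 3 neurogenic factors each way, and that without the 3 controls had 1 catecholamine gene higher and 7 neurogenic factors higher and 1 lower. Among signalling lists, 10 of 34 Wnt, 7 of 26 BMP and 4 of 17 retinoic acid genes were higher, with 3 lower in the Wnt list and none in the other 2. The secreted Wnt inhibitor Sfrp1 was at 173, 228 and 261 CPM in fluoxetine libraries, against 124, 158 and 179.7 CPM in controls. It overlapped slightly, at 0.50 ± 0.107 (adjusted p 0.0526), the BMP target Id1 had 0.44 ± 0.12, and the retinoic acid degrading enzyme Cyp26b1 had 0.46 ± 0.121. Without the 3 fluoxetine libraries, 3 Wnt, 1 BMP and 2 retinoic acid genes were higher at that level and no Wnt gene lower, and without the 3 controls 7, 5 and 5 were higher and no Wnt gene lower.

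Markers of other cell types were present at levels that overlapped between the groups, and their part in the results was not tested. None of 21 pluripotency, 9 endothelial and 13 epithelium genes had an unadjusted p under 0.05. Pluripotency genes summed to 156 to 335 CPM in fluoxetine libraries and 158 to 423 CPM in controls. Endothelial genes summed to 45.3 to 105 CPM in fluoxetine libraries and 66.3 to 144 CPM in controls, and epithelium genes to 131 to 297 CPM in fluoxetine libraries and 135 to 408 CPM in controls. The pluripotency factors Pou5f1 and Nanog had -0.24 ± 0.447 and -0.15 ± 0.398, and both turned to positive values when fluoxetine replicates 5, 6 and 7 were left out. In the fibroblast list 2 of 16 genes were higher and 1 lower, and in the endoderm list 1 of 15 was higher and 4 lower, or 2 lower without the 3 fluoxetine libraries and 5 without the 3 controls. Fibroblast genes summed to 1183 to 2569 CPM in fluoxetine libraries and 826 to 1939.6 CPM in controls, and endoderm genes to 1706 to 2527 CPM in fluoxetine libraries and 1837 to 2270.1 CPM in controls. Of 13 microglia and blood genes 2 passed the count filter, of which 1 was higher at an unadjusted p under 0.05.

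For muscle and neural crest markers some members had an unadjusted p under 0.05, and their part in the results was not tested either. Of 14 muscle and heart genes none was called and 4 were higher at that level, or 1 without the 3 fluoxetine libraries and 3 without the 3 controls, and the list summed to 54.8 to 105 CPM in fluoxetine libraries and 40.9 to 165 CPM in controls. Actc1, the cardiac actin, was at 0.103, 2.66 and 19.1 CPM in fluoxetine libraries, against 0, 0.95 and 3.6 CPM in controls. Its high values were in the replicates 5, 6 and 7, and without them the log2 fold change of 2.67 ± 0.861 became -0.04 ± 0.891. Of 15 neural crest and Schwann genes, 3 were higher and 2 lower, with Ednrb called, or 2 higher without the 3 fluoxetine libraries and 5 without the 3 controls, and the summed level, most of which was Ednrb, was 832 to 951 CPM in fluoxetine libraries and 697 to 787 CPM in controls, without overlap. The mean log2 CPM of these genes, which weighs them equally, was 3.36 to 3.78 in fluoxetine libraries and 3.35 to 4.06 in controls. The crest factors Tfap2a and Tfap2b, which dorsal neural cells also express, had -1.26 ± 0.417 and -1.14 ± 0.393, with adjusted p-values of 0.153 and 0.168.

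Day 7 gave the same exposure after 4 days in other libraries, 7 of fluoxetine and 7 of control. There, 8 of 15601 genes (0.0513%) were called, 5 higher (0.032%) and 3 lower (0.0192%), and 1424 (9.13%) had an unadjusted p under 0.05, with 4.36% higher and 4.77% lower. Of the 19 genes called on day 13, 17 were tested on day 7, none was called, and 6 had the same sign on both days. The 3 with an unadjusted p under 0.05 on day 7 had the opposite sign. These were Ednrb at -0.13 ± 0.0589, Sphkap at 0.69 ± 0.307 and Plekhd1 at 0.52 ± 0.182, with unadjusted p-values of 0.0354, 0.0344 and 0.00922. Nkx6-1 had 0.20 ± 0.168 and Lhx4 0.23 ± 0.224 (unadjusted p 0.252 and 0.308). The difference between the days was not tested.

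**Figure D5:**
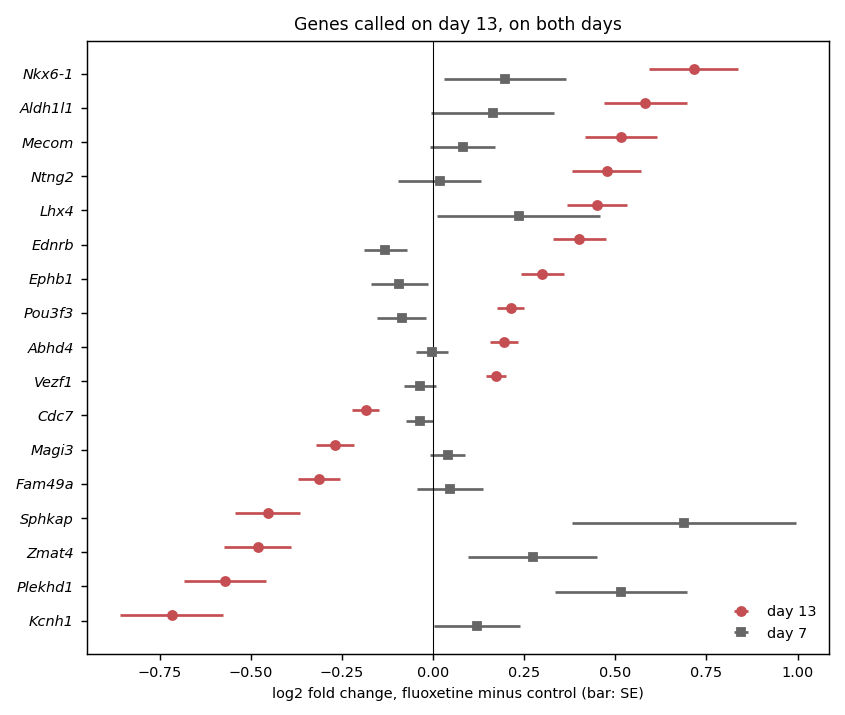
Log2 fold change (x axis, fluoxetine minus control, bar SE) of the 17 called genes tested on both days, with day 13 as red circles and day 7 as grey squares. Day 7 values lie near 0 or on the other side for most genes, with Sphkap and Plekhd1 above 0 on day 7 and below 0 on day 13.

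In untreated cells, the genes called with fluoxetine changed with time in both directions. Of the 9 that fell with fluoxetine, 7 were called higher on day 13 than on day 7 and 1 lower. Of the 10 that rose, 6 were called higher and 3 lower. The share of all genes called between these days is not given here, so these counts do not set the genes apart from others. The log2 difference of day 13 minus day 7 was 6.02 ± 0.343 for Tac1, 5.07 ± 0.144 for Sphkap, 4.24 ± 0.165 for Rasgrf2 and 3.76 ± 0.106 for Zmat4, which fell with fluoxetine, and -0.22 ± 0.0343 for Cdc7. Among genes that rose with fluoxetine, it was 5.09 ± 0.114 for Aldh1l1, 2.42 ± 0.0563 for Ephb1 and 1.94 ± 0.144 for Lhx4 but -0.27 ± 0.0342 for Vezf1, -0.24 ± 0.0546 for Pou3f3 and -0.19 ± 0.0854 for Mecom. Those not called were Nkx6-1 at 0.19 ± 0.139 (adjusted p 0.209) and Plekhd1 at -0.22 ± 0.104 (adjusted p 0.0534). These differences share the day 13 controls with the fluoxetine comparison. Their fit also held untreated stem cell libraries from the start of the differentiation. Those entered only the count filter, the scaling and the shared estimate of the spread.

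Venlafaxine at 90 µM over the same days was compared with the same 7 controls, so its values stand only beside those of fluoxetine at 2 µM, and the doses differ. For Nkx6-1 the log2 fold change with venlafaxine was 0.33 ± 0.122 beside 0.72 ± 0.122 with fluoxetine. Tac1 had -0.32 ± 0.3 beside -1.89 ± 0.338, and Lhx4 -0.01 ± 0.084 beside 0.45 ± 0.0836. The venlafaxine values of these 3 genes came with adjusted p-values of 0.0525, 0.442 and 0.933. Ednrb had 0.28 ± 0.0726 with venlafaxine beside 0.40 ± 0.0727, Aldh1l1 0.70 ± 0.114 beside 0.58 ± 0.114 and Abhd4 0.15 ± 0.0384 beside 0.19 ± 0.0384, with adjusted p-values of 0.0155, 0.00195 and 0.0151 for venlafaxine. Slc6a4 had -0.04 ± 0.315 with venlafaxine beside 0.95 ± 0.309.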

How the data were processed

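The labels describe polyA RNA of ES-D3 cultures, sequenced after an Illumina TruSeq stranded protocol. The authors deposited a table of raw gene counts, whose 49 library columns were matched to samples by name. Per the submitters' processing notes, the tools were featureCounts 1.6.1, STAR 2.6.0b, FastQC 0.11.5 and bcl2fastq 2.19.0.316, and the build was GRCm38.p6. Which annotation was counted, whether strand was used and how multi-mapped reads were treated is not stated in the labels. Of 52550 gene rows, 52403 matched an identifier with a known name, and 27 symbols that a spreadsheet had turned into dates were restored.

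The test was the robust quasi-likelihood F test of edgeR 4.0.16 in R 4.3.3, after TMM scaling and the filterByExpr filter by group. The 21 libraries of day 13, which include 7 of venlafaxine (90 µM from day 3 to day 13), were fitted together so that they share an estimate of the spread. The day 7 fit likewise held the venlafaxine libraries of day 7. The fit of untreated cells over time held the day 7 and day 13 controls and untreated stem cell libraries from the start of the differentiation. A gene was called when its Benjamini-Hochberg adjusted p over all 16397 genes was under 0.05. A standard error is the log2 fold change over the square root of its F value. From the deposited counts and TMM factors, CPM was computed here. The precision of low genes is limited by depth: the median standard error was 0.26 under 1 CPM and 0.045 over 100 CPM. The test was tried on simulated counts first.

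The text names every called gene, the 6 genes next to the threshold, for each list up to 4 members of smallest p, and a panel of marker genes. A few genes that this rule would name are not reported here. The comparison, the 50 lists and the tests were chosen with earlier results of these data known. Alternatives were DESeq2 size factors, the absence of a count filter, a minimum of 1 CPM in 7 libraries, DESeq2 1.42.0, voom in limma 3.58.1, other sets of libraries in the fit, a replicate block and fits without some libraries. Voom with sample quality weights, the fit without control replicates 1, 6 and 8, and all alternatives for lists and for genes not called, were added after seeing the data.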

Additional observations from a re-analysis of the deposited data

Results flagged for a closer look

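Values on day 13 formed 222 groups of 7 libraries, from the named genes, the total counts and the mitochondrial shares. By Dixon's criterion 10 of the groups held a library far from the rest, which chance flags in about 1 of 20 groups. In fluoxetine replicate 4 the values of Hoxb8 (29.3 CPM, next 15.6), Hoxb6 (21.5 CPM, next 7.84), Hoxc6 (1.28 CPM, next 0.44) and Tfap2b (25.7 CPM, next 11.4) were high for the fluoxetine group. In fluoxetine replicate 5, Slc6a2 was low at 0.174 CPM (next 1.05) and Gaa high at 188 CPM (next 169). Glrb was high in fluoxetine replicate 2 at 29.9 CPM (next 25.9). Among controls, Dll4 was low in replicate 1 at 5.21 CPM (next 6.1), Nkx6-2 high in replicate 2 at 27.5 CPM (next 21.6) and Slc7a5 high in replicate 4 at 127 CPM (next 102).

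Of 96 named genes compared between the days, 5 had all fluoxetine libraries on one side of the control median on day 13 and on the other side on day 7. The log2 fold changes on day 13 and day 7 were -0.57 and 0.52 for Plekhd1, -0.43 and 0.34 for Cbln2, 0.36 and -0.12 for Notch3, 0.21 and -0.11 for Nes, and 0.46 and -0.13 for Fgfr3. The difference between the days was not tested.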

How the results depend on the processing

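The number of genes called on day 13 (19) became 29 with no count filter (16 of the 19 kept), 45 with a filter of 1 CPM, 423 with DESeq2, 454 with voom and sample quality weights (all 19 kept in each), 1 with plain voom, 575 with all 49 libraries in the fit (18 kept) and 58 without control replicate 4, fluoxetine replicate 5 and venlafaxine replicate 1 (16 kept). It was 0 without fluoxetine replicates 5, 6 and 7 and 0 without control replicates 1, 6 and 8, where fewer samples were fitted. DESeq2 size factors gave 20 (all 19 kept) and the 2 groups alone 17 (11 kept). The 8 genes called on day 7 became 57 with DESeq2, 14 with the 2 groups alone and 18 with all 49 libraries. The causes were not tested. All 19 called genes kept their sign under the 12 alternatives, which reuse libraries in which these genes were picked.

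Same-numbered fluoxetine and control libraries of day 13 did not deviate together over all genes. Their correlations were -0.517 to 0.0219 over 7 pairs, and none was highest with its own number. Such correlations could miss a small shared batch, and the labels do not state whether the numbers mark one. With the replicate block, 0 genes were called on day 13 (lowest adjusted p 0.0751, 1834 genes with an unadjusted p under 0.05) and 6 on day 7.

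The sign of some genes not called turned in 4 of the fits. Without control replicate 4, fluoxetine replicate 5 and venlafaxine replicate 1, Slc6a2 was 0.18, Pou5f1 0.40 and Nanog 0.34. Without fluoxetine replicates 5, 6 and 7, Pou5f1 was 0.14, Nanog 0.23 and Actc1 -0.037, and under voom with sample quality weights Pou5f1 was 0.22 and Nanog 0.13. Without control replicates 1, 6 and 8, Nes was -0.059, Pax6 0.021, Tubb3 0.068 and Olig2 -0.050.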
